A study of Mus musculus with 7 samples.

Results

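Expression of the genes that carry glucose through glycolysis, into glycogen and out of the cell as lactate was examined in cancer-associated fibroblasts (CAFs) from mouse pancreatic tumors. A list of 36 genes was used, covering glucose uptake, each glycolytic step, the control of fructose 2,6-bisphosphate, lactate formation and transport, the entry of pyruvate into mitochondria, glycogen and the first step of the pentose phosphate pathway. Of these, 33 were among the 12771 genes of the count table, and Pfkp, Aldoc and Slc16a1 were not analysed here. All 33 had a mean normalized count over 5 and were tested, so none was lost to the filter on low values.

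The CAFs came from tumors grown from KPC cells, a mouse pancreatic ductal adenocarcinoma line, in which lentivirus had delivered a hairpin RNA, silencing Brca2 in the shBrca2 group and targeting no gene in the shControl group. Only the injected cancer cells held the hairpin, and both groups used derivatives of 1 cancer cell line. C57BL/6 males (C57BL/6 J in the study's methods) aged 8 weeks received the cells in the pancreas, tumors were taken 2 to 3 weeks later, and live cells without CD45, CD31 and EpCAM and with podoplanin (PDPN) were sorted. RNA was read at the 3' end of transcripts in 3 shControl libraries, numbered 1, 2 and 4, and in 4 shBrca2 libraries, numbered 1 to 4. These match the 3 and 4 mice named in the study, so each library stands for 1 animal.

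Total counts ran from 1898679 to 5990579 per library. All 10 fibroblast markers examined were present. Their summed level was 125620 to 144438 normalized counts in shControl and 100464 to 120032 in shBrca2 libraries, so every shBrca2 sum was below every shControl sum. Of the 10, Dcn and Lum were called lower and none higher, where 5.27% of all genes were called lower. A normalized count is a read count divided by the library's size factor, which puts libraries of different depth on 1 scale. As reads come from transcript ends, counts were not divided by gene length. In sorted bulk RNA, a change in the share of cells that express a gene and a change in the RNA per cell cannot be told apart.

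Glycolysis splits glucose into pyruvate in the cytoplasm. Glucose enters through GLUT transporters, is trapped by hexokinase as glucose 6-phosphate, and is committed to breakdown by phosphofructokinase. Pyruvate is then either reduced to lactate, which leaves through monocarboxylate transporters, or passed to mitochondria by pyruvate dehydrogenase, which the PDK kinases switch off. Glucose 6-phosphate can instead be stored as glycogen or sent into the pentose phosphate pathway. Many of these genes are targets of the hypoxia-inducible factors, and fibroblasts in tumors are known for supplying lactate to neighboring cells.

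The glucose transporters GLUT1 and GLUT3, triosephosphate isomerase, enolase 2 and the glycogen branching enzyme were higher in shBrca2 CAFs at the RNA level, and no listed gene was called lower. A gene was called when its DESeq2 adjusted p was under 0.1, its log2 fold change was beyond 0.5 in either direction and its mean normalized count was over 5, the thresholds of the study's methods. The 5 genes called higher were Slc2a1, Slc2a3, Tpi1, Eno2 and Gbe1, which is 15.2% of the 33, where 3.77% of the 12768 genes tested were called higher. None was called lower by DESeq2 or by edgeR, against 5.27% of all genes, and 12 of the 33 (36.4%) had an unadjusted p under 0.05, as did 17.7% of all genes.

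Log2 fold changes over the whole list were mostly positive, without most of the genes passing the test. The value was above 0 in 24 of the 33 genes (72.7%), against 50.9% of all genes, and its median was 0.43 against 0.01. In 7 genes (21.2%) every shBrca2 library lay above every shControl library, where 7.78% of all genes did so. These were Slc2a1, Slc2a3, Aldoa, Eno2, Slc16a3, Pgm1 and Gbe1. Only Pfkm lay below in every library, where 9.29% of all genes did.

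**Figure D1:**
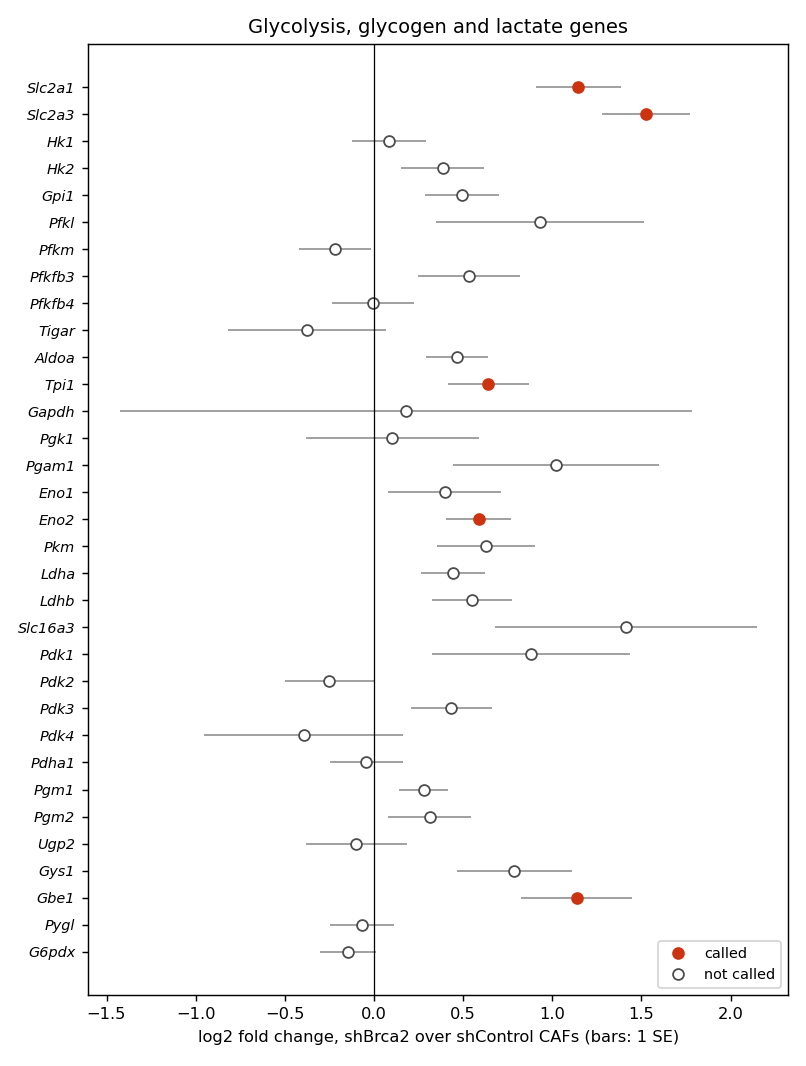
Log2 fold change of each of the 33 genes, shBrca2 over shControl CAFs, in the order of the pathway from uptake to glycogen. Points are DESeq2 estimates, bars are 1 standard error, and filled points are the 5 called genes. Most points lie right of 0, and the bars of Gapdh and Slc16a3 are the widest.

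Both listed glucose transporters were raised, and they were called under more alternatives than any other listed gene. None of 4 further family members measured, Slc2a8, Slc2a10, Slc2a12 and Slc2a13, was called by DESeq2 or edgeR (log2 fold changes -0.48 to 0.44). Among them 0 had an unadjusted p under 0.05, against 17.7% of all genes, and DESeq2 called 9.04% of all genes in either direction. Slc2a1 encodes GLUT1, the transporter that most cells use for basal glucose uptake, and lies at chr4:119108745-119137330 on the plus strand (GRCm38.p6, RefSeq). Values are given here in the order of the replicate numbers. Slc2a1 had 202, 371 and 226 normalized counts in the shControl libraries and 546, 576, 734 and 494 in the shBrca2 libraries. The groups did not overlap, although shControl replicate 2 stood closer to the shBrca2 libraries than the other controls did. The mean rose from 266 ± 91.5 (SD, n = 3) to 588 ± 103 (SD, n = 4) (log2 fold change 1.15, SE 0.24, DESeq2 adjusted p = 0.000255).

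Slc2a3 encodes GLUT3, a transporter with a high affinity for glucose, and lies at chr6:122727809-122802363. It had 47.8, 70.8 and 43.8 normalized counts in the shControl libraries and 160, 127, 181 and 152 in the shBrca2 libraries. Every shBrca2 value was well above the highest control. The mean rose 2.88-fold, from 54.2 ± 14.6 (SD, n = 3) to 155 ± 22.4 (SD, n = 4) (log2 fold change 1.53, SE 0.24, DESeq2 adjusted p = 2.71e-07). Slc2a1 and Slc2a3 were called under all 16 alternative settings and left-out libraries, with log2 fold changes of 0.98 to 1.45 and 1.39 to 1.75.

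The promoters of Slc2a1, the glucose importer, of Slc16a3, the lactate exporter, and of Tpi1 are shown because they stand at the entry, the exit and the middle of the pathway and differ in a short element. The core of the hypoxia response element, ACGTG or GCGTG, was searched on both strands from 250 bases before to 50 after an annotated start (RefSeq, GRCm38.p6). Capitals mark each match, and lower case the rest. The first promoter spans chr4:119108495-119108794 (plus strand), the second chr11:120948817-120949116 (plus strand) and the third chr6:124814109-124814408 (minus strand). The Slc16a3 window begins downstream of that gene's listed start, 120948484, so its matches are not placed from that start.
Slc2a1: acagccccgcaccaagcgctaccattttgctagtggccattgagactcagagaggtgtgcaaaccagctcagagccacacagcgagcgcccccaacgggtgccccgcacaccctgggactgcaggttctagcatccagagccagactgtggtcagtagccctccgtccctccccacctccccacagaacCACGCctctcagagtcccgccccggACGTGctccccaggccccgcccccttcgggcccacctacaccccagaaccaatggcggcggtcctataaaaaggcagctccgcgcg
Slc16a3: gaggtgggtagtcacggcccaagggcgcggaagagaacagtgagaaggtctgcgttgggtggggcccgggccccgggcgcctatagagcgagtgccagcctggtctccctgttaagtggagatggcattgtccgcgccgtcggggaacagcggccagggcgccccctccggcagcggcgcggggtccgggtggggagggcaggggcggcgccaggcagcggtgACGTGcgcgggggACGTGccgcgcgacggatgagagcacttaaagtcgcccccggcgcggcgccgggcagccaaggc
Tpi1: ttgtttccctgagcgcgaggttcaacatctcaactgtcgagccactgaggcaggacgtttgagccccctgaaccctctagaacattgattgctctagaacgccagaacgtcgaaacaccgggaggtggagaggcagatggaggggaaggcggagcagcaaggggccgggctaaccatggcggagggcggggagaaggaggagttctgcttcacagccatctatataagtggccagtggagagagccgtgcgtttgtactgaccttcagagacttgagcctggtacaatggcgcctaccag
Slc2a1 and Slc16a3 held 2 matches each, and Tpi1 held none. The promoter table matched 32 of the 33 genes, through 46 promoters, and Slc2a3 was not among them. A match was found in 33 of the 46 (71.7%), in 60.9% of the promoters of all genes in the count table and in 43.8% of all 32851 promoters. Of the 4 called genes with a promoter, only Slc2a1 held one. The E-box CACGTG, which contains ACGTG, was in 4 of the 46 (8.7%), in 9.86% of the promoters of all genes in the count table and in 7.15% of all promoters. A match is a string of letters in this window and not a measured binding site.

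**Figure D2:**
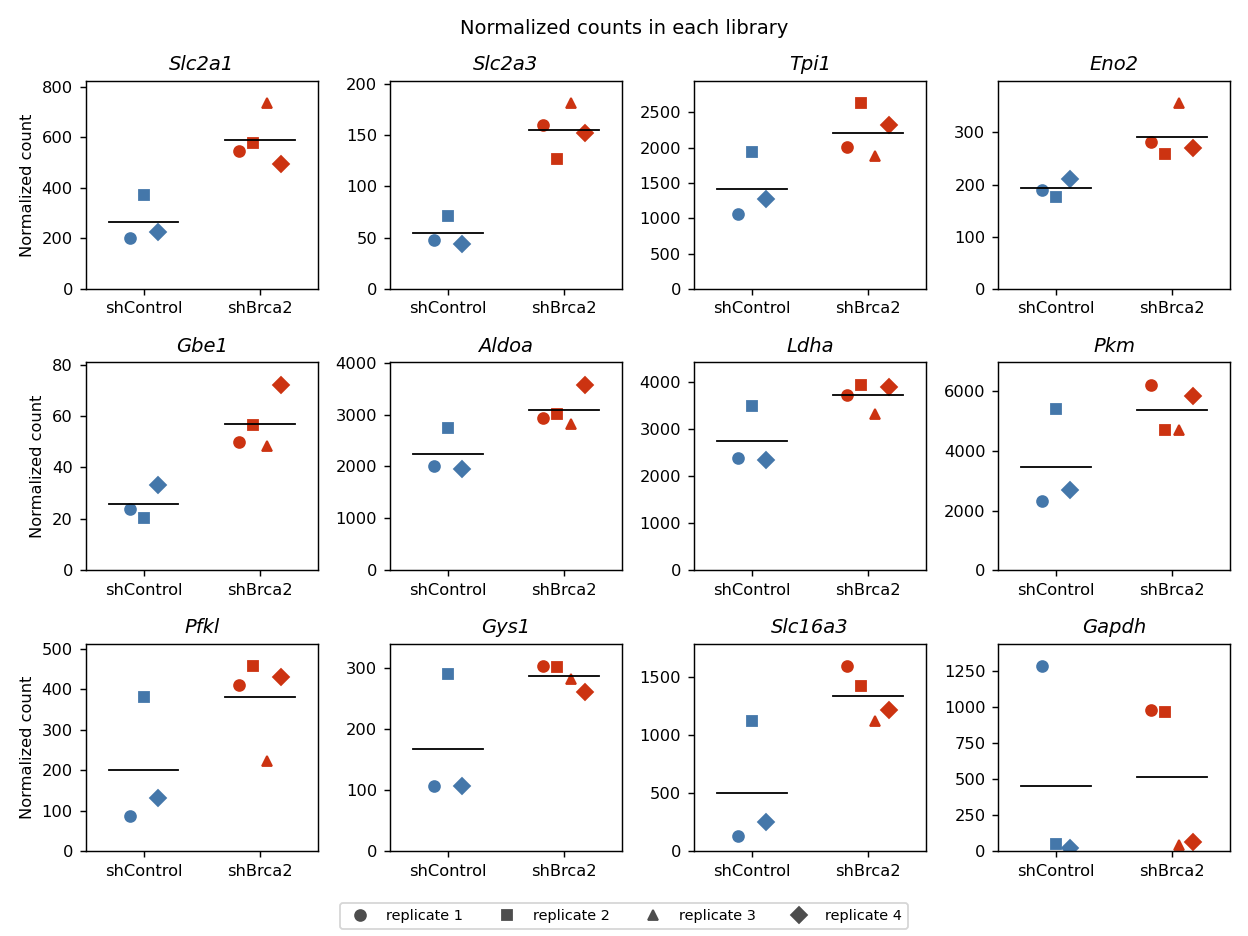
Normalized counts of 12 genes in each library, with a separate linear axis from 0 for each gene. Symbols mark the replicate number and lines the group means (n = 3 shControl and 4 shBrca2). Slc2a1, Slc2a3, Eno2, Gbe1, Aldoa and Slc16a3 do not overlap between groups, while Pkm, Pfkl and Gys1 do because of shControl replicate 2.

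Hexokinases, which trap glucose inside the cell, were not called. Hk1, the listed form with the higher counts, had 260, 402 and 284 normalized counts in the shControl libraries and 311, 392, 340 and 290 in the shBrca2 libraries. The groups overlapped throughout, and the 95% interval of its log2 fold change ran from -0.32 to 0.49. Hk2, the form typical of glycolytic tumor cells, had a log2 fold change of 0.39 (95% interval -0.07 to 0.84, DESeq2 adjusted p = 0.413).

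The isomerase Gpi1, which makes fructose 6-phosphate, had 626, 1104 and 768 normalized counts in the shControl libraries and 1198, 1075, 1102 and 1312 in the shBrca2 libraries. Only shControl replicate 2 reached into the shBrca2 range, and the log2 fold change was 0.49 (SE 0.21, DESeq2 adjusted p = 0.153). Phosphofructokinase, the committed step, was represented by its liver-type subunit Pfkl and its muscle-type subunit Pfkm. Pfkl had 88, 381 and 131 normalized counts in the shControl libraries and 410, 458, 223 and 431 in the shBrca2 libraries (log2 fold change 0.93, SE 0.58, DESeq2 adjusted p = 0.447). Its lowest shBrca2 library, replicate 3, lay below shControl replicate 2. Of the exon bases of Pfkl, 5126 of 12881 overlap another gene, so its count may hold reads of that gene. Pfkm went the other way by a small amount, from 99.6 ± 1.51 (SD, n = 3) to 85.2 ± 7.52 (SD, n = 4), and was not called (log2 fold change -0.22, DESeq2 adjusted p = 0.664).

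Fructose 2,6-bisphosphate, the activator of phosphofructokinase, is made and removed by the PFKFB enzymes and removed by TIGAR. Pfkfb4 had 102, 157 and 133 normalized counts in the shControl libraries and 125, 107, 159 and 133 in the shBrca2 libraries, with no separation of the groups. Pfkfb3, whose enzyme mostly makes the activator, had a log2 fold change of 0.53 (95% interval -0.03 to 1.10), and Tigar one of -0.38 (95% interval -1.25 to 0.49) at raw counts of 10 to 28.

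Aldolase A, encoded by Aldoa, cuts fructose 1,6-bisphosphate into 2 trioses. Aldoa had 2006, 2740 and 1955 normalized counts in the shControl libraries and 2935, 3009, 2817 and 3577 in the shBrca2 libraries. The groups were separate, but the lowest shBrca2 library was close to shControl replicate 2. With a log2 fold change of 0.47 (SE 0.17) it fell short of the fold threshold, although its DESeq2 adjusted p was 0.0905. Of its exon bases, 2355 of 5378 overlap other genes, 84 of them on the opposite strand.

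Triosephosphate isomerase, encoded by Tpi1, interconverts those trioses, and the gene lies at chr6:124810586-124814158 on the minus strand. It had 1053, 1932 and 1266 normalized counts in the shControl libraries and 2003, 2627, 1886 and 2317 in the shBrca2 libraries. The groups met at shControl replicate 2, which lay above shBrca2 replicate 3. The mean rose from 1417 ± 458 (SD, n = 3) to 2208 ± 333 (SD, n = 4) (log2 fold change 0.64, SE 0.23, DESeq2 adjusted p = 0.065). This call was lost without shControl replicate 1 (adjusted p = 0.358), shControl replicate 4 (0.268), shBrca2 replicate 1 (0.118), replicate 2 (0.166) or replicate 4 (0.181), and edgeR gave an adjusted p of 0.106.

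Enolase makes phosphoenolpyruvate, and of its listed forms Eno2, neuronal or gamma enolase, was called. Eno2, at chr6:124760053-124769673 on the minus strand, had 190, 177 and 211 normalized counts in the shControl libraries and 282, 258, 356 and 270 in the shBrca2 libraries. The controls were tightly grouped and below every shBrca2 library. The mean rose 1.5-fold, from 193 ± 17.2 (SD, n = 3) to 292 ± 43.9 (SD, n = 4) (log2 fold change 0.59, SE 0.18, DESeq2 adjusted p = 0.0269). The call was lost without shControl replicate 1 (adjusted p = 0.191), shControl replicate 2 (0.125), shBrca2 replicate 1 (0.143) or shBrca2 replicate 3 (0.103). The common form, Eno1, had 173, 349 and 143 normalized counts in the shControl libraries and 254, 232, 420 and 264 in the shBrca2 libraries, which overlapped (log2 fold change 0.40, DESeq2 adjusted p = 0.59).

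Pyruvate kinase, encoded by Pkm, ends glycolysis and had the highest normalized counts among the listed genes. Pkm had 2321, 5420 and 2674 normalized counts in the shControl libraries and 6222, 4686, 4706 and 5845 in the shBrca2 libraries. shControl replicate 2 lay inside the shBrca2 range and the other controls far below it. The log2 fold change was 0.63 (SE 0.28, DESeq2 adjusted p = 0.185). Of its exon bases, 5451 of 13417 overlap other genes, 2294 of them on the opposite strand.

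Lactate dehydrogenase interconverts pyruvate and lactate. Ldha, the form that favors lactate, had 2387, 3478 and 2342 normalized counts in the shControl libraries and 3721, 3936, 3307 and 3887 in the shBrca2 libraries. Again only shControl replicate 2 overlapped with shBrca2, and the log2 fold change of 0.44 (SE 0.18) was not called (DESeq2 adjusted p = 0.138). Ldhb, the form that favors pyruvate, had a log2 fold change of 0.55 (SE 0.23, DESeq2 adjusted p = 0.141). For Ldhb the overlapping control was replicate 4 at 289 normalized counts, and without that library it was called (log2 fold change 0.84, DESeq2 adjusted p = 0.00709).

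Slc16a3, which encodes the lactate exporter MCT4, differed most between controls among these genes apart from Gapdh. The gene lies at chr11:120948484-120959000 on the plus strand. It had 137, 1121 and 255 normalized counts in the shControl libraries and 1598, 1421, 1128 and 1216 in the shBrca2 libraries. Every shBrca2 library was above every control, but shBrca2 replicate 3 and shControl replicate 2 were nearly equal. The mean was 504 ± 537 (SD, n = 3) in shControl and 1341 ± 211 (SD, n = 4) in shBrca2, and the difference was not called (log2 fold change 1.41, SE 0.73, DESeq2 adjusted p = 0.326). Of its exon bases, 4981 of 11305 overlap other genes, all on the opposite strand.

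How many genes of the pathway were called depended on a single control, shControl replicate 2. It was the highest control in 19 of the 33 genes (57.6%), against 35.4% of all genes. Relative to the mean of the other controls, its level was 5.73-fold for Slc16a3, 4.51-fold for Pgam1, 3.47-fold for Pfkl, 2.71-fold for Gys1 and 2.17-fold for Pkm. Without this library 14 of the 33 genes were called higher, against 4.87% of all genes. Slc2a1, Slc2a3, Tpi1 and Gbe1 kept their call, Eno2 lost it, and Gpi1, Pfkl, Pfkfb3, Aldoa, Pgam1, Eno1, Pkm, Ldha, Slc16a3 and Gys1 gained it. The log2 fold change of Slc16a3 was then 2.78 (DESeq2 adjusted p = 3.9e-18), and that of Pkm 1.10 (DESeq2 adjusted p = 3.8e-06). In the opposite case, without shControl replicate 1, only Slc2a1 and Slc2a3 were called, against 2.15% of all genes, and without shBrca2 replicate 1 these and Gbe1 were, against 2.04% of all genes. The labels give no reason to leave any of these libraries out.

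**Figure D3:**
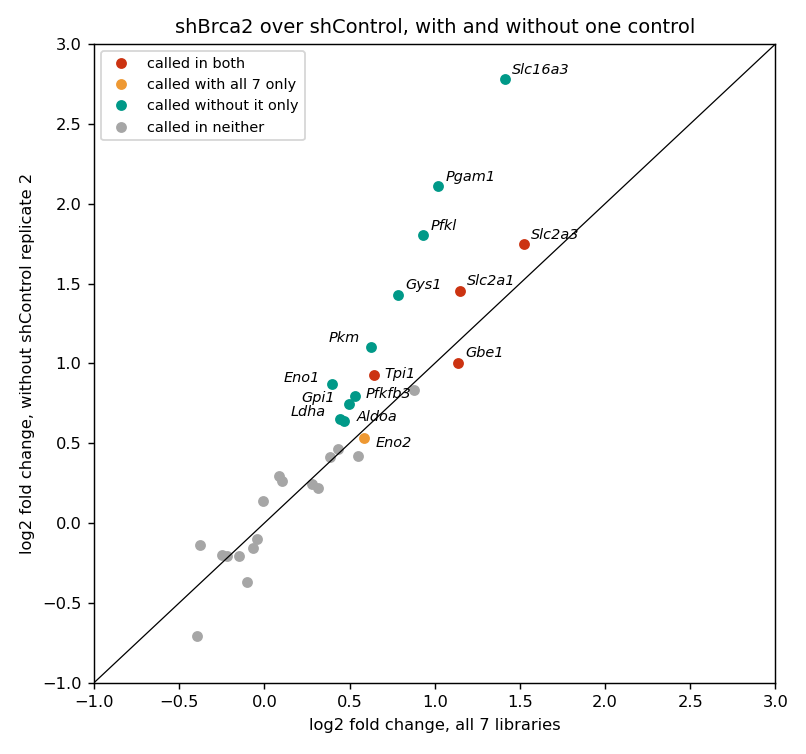
Log2 fold change of 32 genes with all 7 libraries (horizontal axis) and without shControl replicate 2 (vertical axis). Gapdh is not drawn. The line marks equal values and colors mark in which comparison a gene was called. Slc16a3, Pgam1, Pfkl and Gys1 lie farthest above the line.

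**Figure D4:**
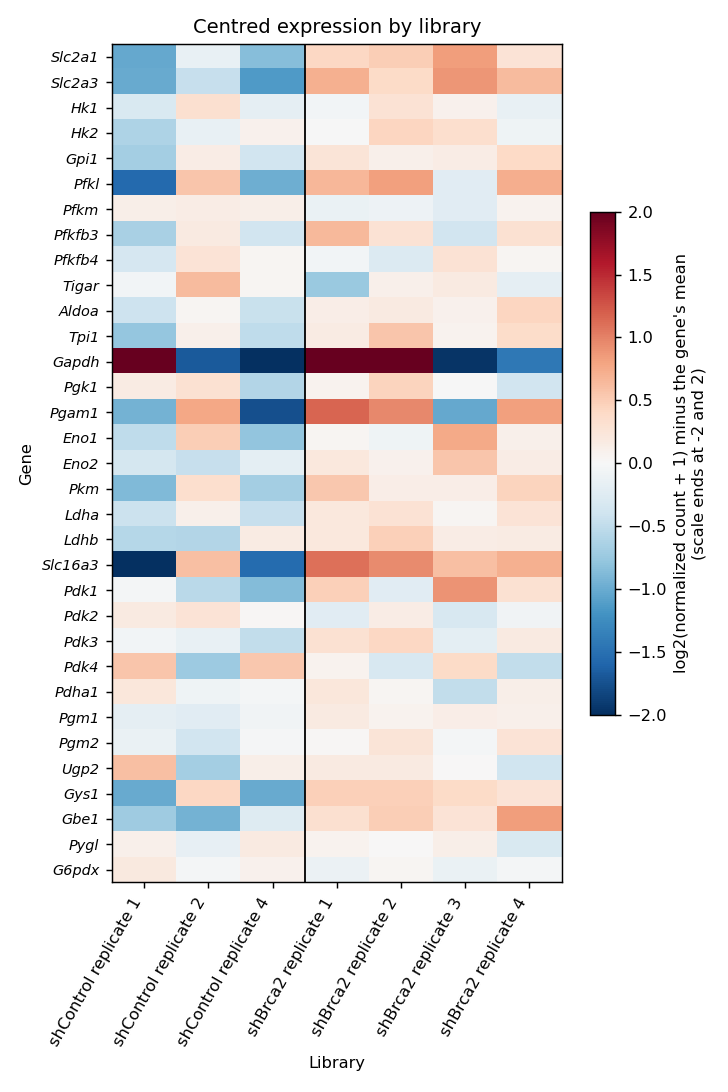
Centered expression of the 33 genes, log2(normalized count + 1) minus the gene's mean over 7 libraries, with rows in pathway order and colors ending at -2 and 2. shControl replicates 1 and 4 are low for most glycolytic genes, shControl replicate 2 is mixed, and Gapdh is split within both groups.

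The steps between the trioses and enolase were poorly measured. Gapdh, the dehydrogenase often used as a reference gene, had 1286, 53.1 and 23.3 normalized counts in the shControl libraries and 979, 969, 43.2 and 63.0 in the shBrca2 libraries. The high and low libraries occurred in both groups, and the log2 fold change of 0.18 had a standard error of 1.60 (DESeq2 adjusted p = 0.96). Its range over libraries, 5.72 on the log2 scale, was the widest among 2719 genes whose mean normalized count exceeded 200, and the next was 4.34. The last 300 bases of its transcript have 37 near-identical copies elsewhere in the mouse genome (at least 95% identity over at least 80% of the length, GRCm39), so reads may have been lost or split there, which was not tested.

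Phosphoglycerate kinase Pgk1, which yields ATP, had 13.7, 15.2 and 7.78 normalized counts in the shControl libraries and 12.9, 16.9, 12.1 and 9.15 in the shBrca2 libraries, at raw counts of 7 to 29. Pgam1, the mutase that follows, had 12.8, 44.3 and 6.81 against 58.5, 50.7, 12.1 and 45.7 normalized counts. Neither was called (log2 fold changes 0.10 and 1.02, DESeq2 adjusted p = 0.947 and 0.374). Near-identical copies of the transcript end were found for both (3 and 4), for Eno1 (4) and for Ldhb (1), and for none of the other 28 genes, which include all 5 called genes.

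At the mitochondrial gate none of 5 genes was called by DESeq2 or edgeR, and 0 had an unadjusted p under 0.05. Of all genes, 9.04% were called by DESeq2 in either direction and 17.7% had such an unadjusted p. Pdha1, the catalytic subunit of pyruvate dehydrogenase, had 279, 225 and 232 normalized counts in the shControl libraries and 279, 244, 169 and 257 in the shBrca2 libraries. The groups overlapped, and its 95% interval ran from -0.45 to 0.36 on the log2 scale. Of the kinases that inhibit the enzyme, Pdk1 had a log2 fold change of 0.88, Pdk3 0.43, Pdk2 -0.25 and Pdk4 -0.39. Pdk1 and Pdk4 had raw counts of 16 or less in every library, with 95% intervals of -0.21 to 1.97 and -1.49 to 0.70.

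In glycogen metabolism the branching enzyme stood out. Gbe1, which adds the branches to glycogen, lies at chr16:70313949-70569720 on the plus strand and had 23.9, 20.2 and 33.1 normalized counts in the shControl libraries and 49.9, 56.5, 48.4 and 72.2 in the shBrca2 libraries. The groups were well apart, at raw counts of 16 to 97. The mean rose 2.20-fold, from 25.7 ± 6.61 (SD, n = 3) to 56.7 ± 10.9 (SD, n = 4) (log2 fold change 1.14, SE 0.31, DESeq2 adjusted p = 0.00705). It was called in 15 of 16 alternatives, and without shControl replicate 1 its adjusted p was 0.1, at the threshold.

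Gys1, the muscle-type glycogen synthase that lengthens the chains, had 107, 290 and 107 normalized counts in the shControl libraries and 304, 302, 283 and 262 in the shBrca2 libraries. The shBrca2 libraries were close together and shControl replicate 2 lay among them (log2 fold change 0.79, SE 0.32, DESeq2 adjusted p = 0.142). Pgm1, with the highest counts of the listed glycogen genes, had 349, 338 and 375 against 446, 417, 432 and 422 normalized counts, a small difference without overlap (log2 fold change 0.28, DESeq2 adjusted p = 0.271). The phosphoglucomutase symbols Pgm1 and Pgm2 have been exchanged between mouse annotation releases, and which enzyme each row counts is not given in the sources used here. Pgm2 had a log2 fold change of 0.31, Ugp2, which makes UDP-glucose, -0.10, and Pygl, the liver-type phosphorylase that breaks glycogen down, -0.07, and none was called. G6pdx, which opens the pentose phosphate pathway, had 307, 262 and 286 against 246, 275, 245 and 262 normalized counts (log2 fold change -0.15, DESeq2 adjusted p = 0.721).

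Ratios between related genes were compared next, since a ratio within a library needs no size factor. For 11 pairs the difference in log2((count A + 1) / (count B + 1)) was tested by a two-sided exact permutation test, whose smallest possible p with 3 and 4 libraries is 0.057. With a pseudocount of 1 none reached it, and every pair overlapped between groups. With a pseudocount of 5, Pdk1 over Pdk4 reached it (difference 0.79, exact permutation p = 0.0571). Both genes had raw counts of 16 or less, so the pseudocount weighs heavily in this ratio. At a pseudocount of 1 the lowest p was 0.114 (exact permutation, Benjamini-Hochberg 0.314 over the 11 pairs). It was shared by Slc2a1 over Slc2a3, Pfkm over Pfkl, Pdk1 over Pdk2 and Pdk1 over Pdk4. Pfkm over Pfkl was 0.16, -1.90 and -0.40 in the shControl libraries and -2.30, -2.42, -1.5 and -2.16 in the shBrca2 libraries, a difference of -1.38 that became -1.97 without shControl replicate 2. Ldha over Ldhb differed by -0.12 and changed sign, to 0.19, without shControl replicate 2. Ldha over Pdha1, lactate formation against mitochondrial entry, differed by 0.53 (exact permutation p = 0.171).

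The summed counts of the 33 genes made up 0.379%, 0.557% and 0.368% of all counts in the shControl libraries and 0.748%, 0.656%, 0.612% and 0.721% in the shBrca2 libraries. The lowest shBrca2 library was above the highest control. The means were 0.435% ± 0.106 (SD, n = 3) and 0.684% ± 0.0617 (SD, n = 4), and the difference of 0.249 percentage points was 0.247 with Gapdh left out of the sum. As this share is led by Pkm, Ldha, Aldoa and Tpi1, the genes with the most counts, it describes them more than the transporters.

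**Figure D5:**
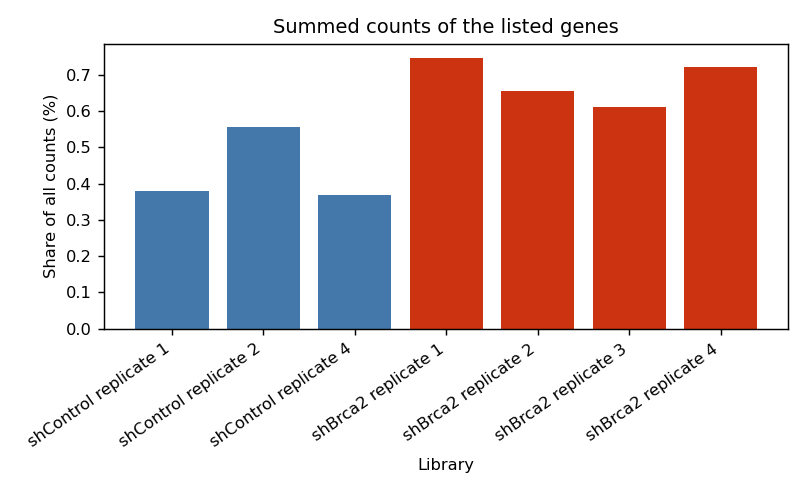
Share of all counts of a library taken by the 33 genes together, in percent, with 1 bar per library (blue shControl, red shBrca2). shBrca2 bars run from 0.612% to 0.748% and shControl bars from 0.368% to 0.557%.

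Further genes of glucose metabolism were examined beside the listed ones. Of 131 measured (163 listed), 5 were called higher (3.82%, against 3.77% of all genes) and 4 lower (3.05%, against 5.27%), and their median log2 fold change was 0.01. None of 21 tricarboxylic acid cycle genes and none of 17 genes of pyruvate entry and pyruvate dehydrogenase was called by DESeq2 or edgeR. Of these, 2 and 5 had an unadjusted p under 0.05. Over all genes, DESeq2 called 9.04% in either direction and 17.7% had an unadjusted p under 0.05. Eno3, the muscle enolase, had 67.5, 79.7 and 88.5 normalized counts in the shControl libraries and 176, 129, 140 and 121 in the shBrca2 libraries, without overlap (log2 fold change 0.85, DESeq2 adjusted p = 0.00602). Gpd2, the mitochondrial arm of the glycerol phosphate shuttle, Slc25a13, a carrier of the malate-aspartate shuttle, and Prkab1, a subunit of the energy sensor AMPK, were also among those called higher (log2 fold changes 1.03, 2.05 and 0.64). The value of Slc25a13 (SE 0.68) rests on low counts, 1.71, 5.06 and 3.89 normalized counts in shControl and 7.74, 12.2, 25.9 and 13.2 in shBrca2 libraries.

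Among the 4 genes called lower was Epas1, which encodes the hypoxia-inducible factor HIF-2α. Epas1 had 485, 485 and 664 normalized counts in the shControl libraries and 169, 268, 295 and 140 in the shBrca2 libraries. The groups were well separated (log2 fold change -1.32, SE 0.27, DESeq2 adjusted p = 7e-05), and Epas1 was called in all 16 alternatives. Myc, a transcription factor that drives many glycolytic genes, had 1672, 557 and 1923 against 280, 602, 589 and 312 normalized counts, with shControl replicate 2 inside the shBrca2 range (log2 fold change -1.64, DESeq2 adjusted p = 0.0395). Gaa, the lysosomal enzyme that degrades glycogen, and Rpia, of the pentose phosphate pathway, fell by 0.71 and 0.80 on the log2 scale. Apart from Epas1 these calls depended on single libraries: without shControl replicate 1 no further gene was called higher and 3 were called lower (2.29%), against 2.15% and 2.98% of all genes. Without shControl replicate 2 these numbers were 11 (8.4%) and 8 (6.11%), against 4.87% and 5.55% of all genes.

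Summed markers of some other cells differed between groups as well, and others overlapped. Endothelial markers summed to 72 to 123 normalized counts in shControl and 85 to 115 in shBrca2 libraries, with none called. Mesothelial markers summed to 1180 to 3704 against 2590 to 3235, with Krt19 called higher. Acinar markers summed to 140 to 212 against 96 to 157, with Cela1 called higher and Prss2 and Cpa1 lower. Over all genes, 3.77% were called higher and 5.27% lower. The 9 epithelial and cancer cell markers measured, of 13 listed, summed to 419, 844 and 1219 normalized counts in the shControl libraries and 1591 to 2190 in the shBrca2 libraries, and 6 were called higher (Krt7, Krt8, Krt18, Krt19, Cldn3 and Elf3). Epcam, Cldn4 and Esrp1 were among those not analysed here, and no measured marker was at 0 in all libraries. Among the controls the epithelial sum was lowest in replicate 1 and highest in replicate 4. Pericyte markers (6 of 6 measured) summed to 688, 1230 and 784 against 1219 to 1608 normalized counts, with Notch3 and Des called higher. Proliferation markers (12 of 12) summed to 755, 1431 and 761 against 1544, 1439, 903 and 1529 normalized counts, with Ccnb1 called higher. The pericyte and proliferation sums overlapped between groups and were highest among the controls in replicate 2. Immune markers (8 of 13) summed to 325 to 343 against 401 to 442 normalized counts, with Csf1r and C1qa called higher and the plasma cell genes Jchain and Mzb1 lower. Alas2, the only erythroid marker measured of 6, had 3.42 to 10.7 against 44.9 to 85.2 normalized counts and was called higher. The part of these cells in the glycolytic differences was not tested.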

How the data were processed

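RNA of sorted CAFs was measured in 3 shControl and 4 shBrca2 libraries, grouped by the silencing status of the injected KPC cells given in the labels. The authors deposited 1 table of raw counts per gene symbol, whole numbers without normalization, made with a variant of MARS-seq, a 3' end protocol. The submitters' processing notes name bcl2fastq, cutadapt, STAR 2.4.2a, HTSeq and DESeq2, and the build mm10. The annotation release, strand setting and collapsing of molecular barcodes are not given in the sources used here, so counts may include PCR copies and reads of overlapping genes. A low count sets the precision for genes such as Pgk1, Pdk1 and Pdk4.

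DESeq2 1.42.0 (R 4.3.3) was run over all 12771 genes by likelihood ratio test between the groups, without covariates and with the size factors that the tool computes by default, and 3 genes received no p. Benjamini-Hochberg adjustment was over all genes tested. Fold changes were not shrunken. Alternatives were a Wald test, edgeR 4.0.16 quasi-likelihood tests, other filters, thresholds and size factors, a replicate block and leaving out each library. The code was tested on simulated data with 200 changed genes. It recovered 70% of the genes with a log2 fold change of 1 in either direction and 99% of those with 2. Of its 199 calls, 15.1% were false. Named genes were every listed gene, with values in every library for each called gene and for the gene with the highest mean count in each step, and the called genes among further pathway lists, of which 1 is not reported here. The gene list, these lists and the tests were chosen with earlier results of these data known. Promoters and positions came from RefSeq on GRCm38.p6, the assembly of mm10. Copies of transcript ends and overlapping exons were counted with BLAST 2.17.0 and GENCODE M39 on GRCm39. Same-numbered libraries did not deviate together (correlations of -0.13, -0.171 and -0.183 over 6735 genes), so replicate numbers were not used as pairs.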

Additional observations from a re-analysis of the deposited data

How the results depend on the processing

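The calls of Slc2a1 and Slc2a3 held in all 16 alternatives, that of Gbe1 in 15, that of Eno2 in 11 and that of Tpi1 in 8. Scaling to total counts raised the number of listed genes called higher from 5 to 11, where 5.55% of all genes were called higher, and the share of higher calls over all genes from 41.7% to 58.5%. It also moved the median log2 fold change of all genes to 0.12, and the listed genes' median of 0.54 was 0.42 above it. With the adjusted p threshold at 0.05, 2 further pathway genes were called higher (1.53%, against 2.82% of all genes). Leaving out 1 library gave 261 to 610 genes called higher and 354 to 695 lower over all genes, 2 to 14 listed genes higher, and 0 to 11 further pathway genes higher and 1 to 8 lower. The replicate block gave 242 genes higher and 322 lower, 7 listed genes higher (Eno2 lost, Gys1, Pfkl and Pgam1 gained) and 0 further pathway genes higher. The libraries share only a number, so this is not a paired comparison.

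Signs changed for values near 0. Pfkfb4 was 0.000 with a minimum count of 10 in 3 libraries and 0.115 with total counts, which also gave Pdha1 0.073, Ugp2 0.007 and Pygl 0.045, and Pdha1 was 0.085 with the block. Leaving out 1 library gave log2 fold changes of -0.04 to 0.29 for Hk1, -0.16 to 0.14 for Pfkfb4, -0.38 to 3.75 for Gapdh, -0.15 to 0.26 for Pgk1, -0.127 to 0.077 for Pdha1, -0.37 to 0.23 for Ugp2 and -0.158 to 0.021 for Pygl. It gave ratios of -0.32 to 0.45 for Eno2 over Eno1, -0.47 to 0.19 for Ldha over Ldhb and -0.083 to 0.04 for Pgm1 over Pgm2. The cause was not tested.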

Other observations

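Of the 5 called genes, 3 (Slc2a3, Eno2 and Tpi1) lie on chromosome 6, where 8 of the 33 genes are. Eno2 and Tpi1 are 40912 bases apart. Of the 13 measured neighbors within 100000 bases of Tpi1, 2 were called, Eno2 and P3h3, the latter lower. Over all genes, 9.04% were called by DESeq2 in either direction. Around Slc2a1 none of 4 neighbors and around Slc2a3 none of 2 was called by DESeq2 or edgeR. Of these, 0 and 2 had an unadjusted p under 0.05, as did 17.7% of all genes. These genes were chosen after their positions and values were seen.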
